A study of Mus musculus with 19 samples.

Results

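The transcription factors Foxa1, Foxa2, Hoxb13 and Sox9, which are known for their part in prostate epithelium, were followed across 4 tissues of the mouse embryo. The factors were chosen with earlier results of these data known. Their probe sets were taken by the gene symbol of the array annotation. This gave 6 probe sets for 4 genes, of 45101 probe sets and 18193 named genes on the array. All 6 were among the 41549 probe sets tested. Foxa1, Foxa2 and Hoxb13 have 1 probe set each and Sox9 has 3, of which the brightest stands for the gene unless another is named.

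All samples came from C57BL/6 embryos at embryonic day 16 (E16), with no genetic change or treatment named. Urogenital sinus epithelium (UGE, n = 6) and urogenital sinus mesenchyme (UGM, n = 5) were parted with trypsin, while epidermis (n = 4) and dermis (n = 4) from back skin were parted by hand after a night in cold dispase, so that site and separation method cannot be told apart. Each sample is tissue pooled from several embryos, and according to the methods the embryos that gave the skin also gave the sinus, so groups may share embryos and p-values measure the spread between pools. RNA was read on 19 MOE430 2.0 arrays, a platform with 1 intensity per probe set, and 4 to 6 arrays per group limit the precision of every value. These are whole tissue layers, so fewer cells of a type and less RNA per cell cannot be told apart.

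Foxa1 and Foxa2 are forkhead proteins called pioneer factors because they can bind their sites in closed chromatin and open it for other regulators. Both are known from organs lined by endoderm, and in prostate epithelium Foxa1 acts together with the androgen receptor. Hoxb13 is the most posterior member of the Hoxb cluster and is known for its part in prostate differentiation. Sox9, an HMG box factor, is known from prostate buds, from hair follicle stem cells and from cartilage and testis. The urogenital sinus, an endodermal tube, forms prostate buds when its mesenchyme answers to androgen, and E16 lies just before the buds appear.

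The forkhead genes are shown with the promoter letters given for them, since a forkhead protein could bind its own gene or its sister's. The promoter table held Foxa1 and Foxa2 and lists 1 annotated start for Foxa1 and 3 for Foxa2, of which the most upstream is shown. The sequences are the 250 bases before the start, from RefSeq on GRCm38.p6, Foxa1 at chr12:57546112-57546361 and Foxa2 at chr2:148046970-148047219, both on the minus strand and read 5′ to 3′ toward the gene, with the forkhead match in capitals.
Foxa1: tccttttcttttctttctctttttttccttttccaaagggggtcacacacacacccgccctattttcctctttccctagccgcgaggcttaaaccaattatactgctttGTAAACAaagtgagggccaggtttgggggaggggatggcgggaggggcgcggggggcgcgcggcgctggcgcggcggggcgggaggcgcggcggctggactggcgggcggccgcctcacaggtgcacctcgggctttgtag
Foxa2: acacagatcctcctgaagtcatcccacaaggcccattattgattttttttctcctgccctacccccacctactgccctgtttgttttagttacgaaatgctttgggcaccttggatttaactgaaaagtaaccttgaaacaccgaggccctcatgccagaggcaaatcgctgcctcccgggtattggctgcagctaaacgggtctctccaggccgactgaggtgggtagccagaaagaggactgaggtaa
The Foxa1 window held 1 match to the forkhead motif TGTTTAC, read on either strand, and it lies here on the reverse strand. None of the 3 Foxa2 windows held this exact run of letters, and looser forms of the motif were not searched. Of 32851 windows of the same length 3.17% held this motif. Neither the Hox group 13 motif CCAATAAA, found in 1.02% of all windows, nor the Sox motif ACAATGG, found in 3.02%, was in a window of either gene. A match is a run of letters and not a measured site.

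The 4 factors were all higher in the UGE relative to the UGM, while none of them was called between epidermis and dermis. Foxa1, Foxa2 and Hoxb13 stood far apart from the other tissues in the UGE, by 4.94 to 5.82 log2 units over the UGM, and Sox9 by 1.52. A gene was called changed at a limma adjusted p under 0.01 (Benjamini-Hochberg, over the 41549 probe sets) with a difference over 2-fold. By that rule 4 of 4 factors were higher in the UGE, where 5.85% of all tested probe sets were (13.3% in either direction). Since the factors were chosen with earlier results known, this count is a description and not a test. Between epidermis and dermis 0 of 4 were called, against 13.7% of all. With 4 genes, 0 calls lie near that share and do not set the factors apart. Levels below are log2 intensity of 1 probe set, as mean ± SD, and differences are log2 with their standard error (SE). Levels of different probe sets cannot be set against each other on this array.

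**Figure D1:**
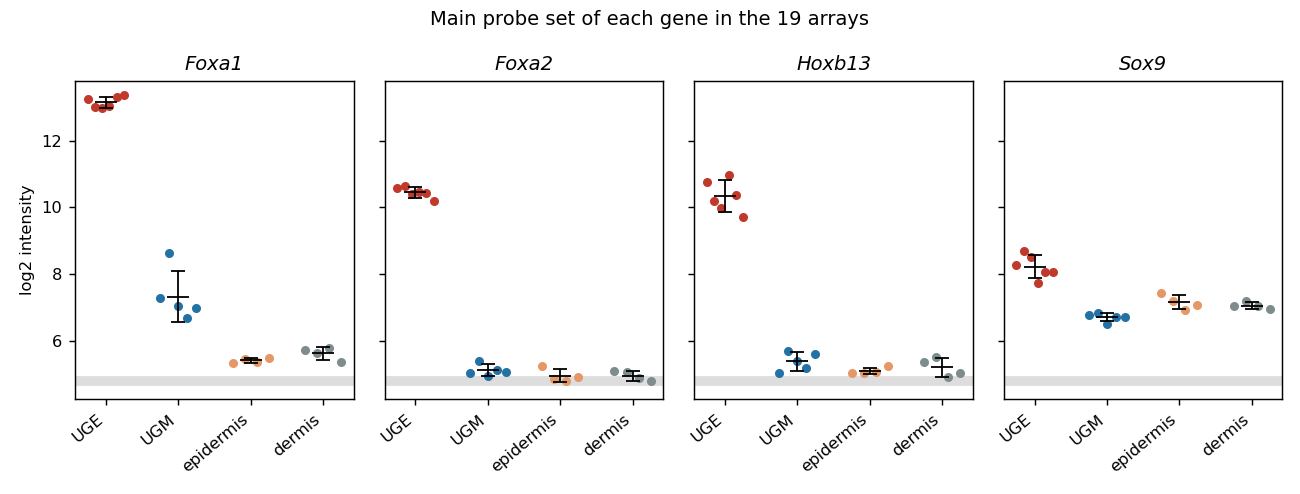
Log2 intensity (vertical axis) of the main probe set of Foxa1, Foxa2, Hoxb13 and Sox9 in each of the 19 arrays, by tissue (horizontal axis). Points are arrays, horizontal bars with whiskers are mean ± SD, and the grey band spans the lower quartiles of the 19 arrays, 4.70 to 4.92. For each gene the UGE samples lie above all other samples, by a wide gap for Foxa1, Foxa2 and Hoxb13 and by a narrow one for Sox9.

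Foxa1 had the largest difference of the 4 factors. In the UGE its 6 samples ran from 12.97 over a median of 13.15 to 13.35. In the UGM it lay at 7.29, 8.65, 7.05, 6.69 and 6.99 in replicates 1 to 5. The UGE samples sat together and no UGM sample came near them, while UGM replicate 2 stood above the other UGM samples. In epidermis the values were 5.36, 5.47, 5.39 and 5.50, and in dermis 5.75, 5.65, 5.79 and 5.38. The skin samples overlapped each other and lay below every UGM sample. Foxa1 was thus ordered UGE, UGM and then skin, with epidermis and dermis not apart. The means were 13.15 ± 0.16, 7.33 ± 0.76, 5.43 ± 0.07 and 5.64 ± 0.19 in UGE, UGM, epidermis and dermis.

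Foxa1 was higher in the UGE relative to the UGM by 5.82 ± 0.28 (56.6-fold, 95% interval 5.21 to 6.44 in log2, limma adjusted p = 9.12e-09). Relative to the epidermis the UGE was higher by 7.72 ± 0.25, or 211-fold (limma adjusted p = 4.01e-14). Between epidermis and dermis the difference was -0.21 ± 0.11 with an interval of -0.47 to 0.04 (limma adjusted p = 0.195). The difference of these differences, the interaction, was 6.03 ± 0.36 (limma adjusted p = 5.64e-10).

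Foxa1 was also higher in the UGM relative to the dermis, by 1.69 ± 0.26 or 3.22-fold (limma adjusted p = 4.06e-05). It was the 1 factor of 4 called there, where 12.2% of all probe sets were. Without UGM replicate 2 the difference was 1.36, and the call was kept. The summed intensity of 10 epithelial marker genes (such as Cdh1, Epcam and Krt8) was 2324, 3849, 1739, 1596 and 2774 in UGM replicates 1 to 5 and 10200, 3252, 6122 and 5485 in dermis replicates 1 to 4. So the UGM sample with the highest Foxa1 also had the highest epithelial sum of its group. The epithelium next to the dermis is the epidermis, which had a Foxa1 mean of 5.43. Of the 10 markers in the 1 fit of all groups, Krt18, Cldn7 and Krt8 were higher in UGM than in dermis, by 2.96, 1.71 and 1.08, and 5 were lower. Whether epithelial RNA in the UGM samples plays a part in their Foxa1 was not tested.

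**Figure D2:**
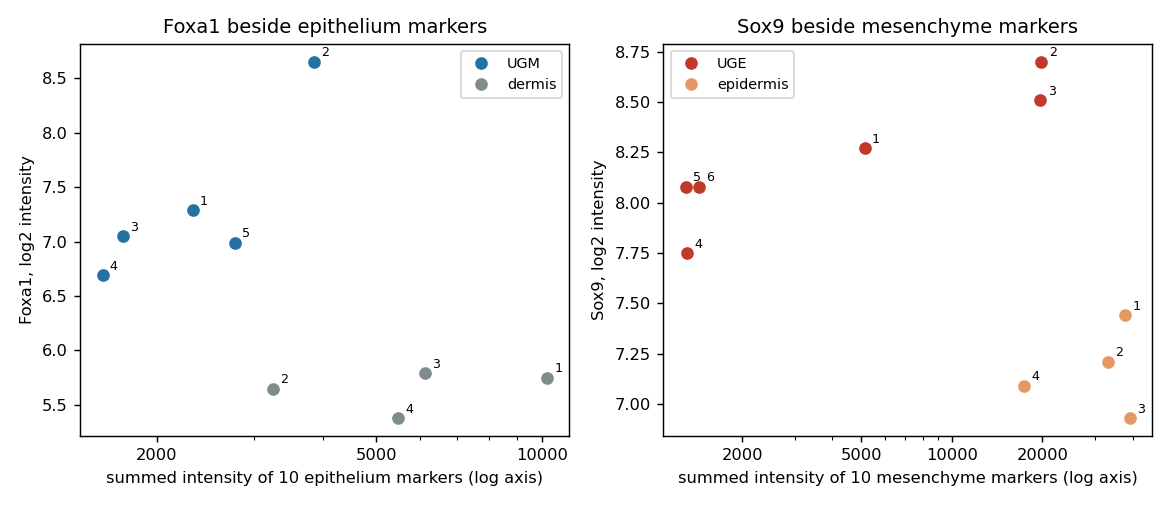
Left, Foxa1 (log2 intensity) against the summed intensity of 10 epithelial markers (log axis) in the UGM and dermis arrays. Right, Sox9 against the summed intensity of 10 mesenchymal markers (log axis) in the UGE and epidermis arrays. Each point is an array with its replicate number. UGM replicate 2 is highest in both Foxa1 and the epithelial sum of its group, and UGE replicates 2 and 3, with mesenchymal sums of 19890 and 19730, are the highest of the UGE in this main probe set of Sox9.

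Foxa2, the sister of Foxa1 and known for its role in notochord, floor plate and endoderm, was high in the UGE alone. Its UGE samples ran from 10.18 over a median of 10.44 to 10.64. In the UGM the values were 5.05, 5.41, 4.97, 5.15 and 5.09. Every UGE sample lay far above all UGM samples, and the spread within both groups was small. In epidermis Foxa2 lay at 5.26, 4.87, 4.82 and 4.92, and in dermis at 5.10, 5.09, 4.89 and 4.80. UGM, epidermis and dermis overlapped and have no order, all near the lower quartile of the arrays. The means were 10.45 ± 0.16, 5.14 ± 0.17, 4.97 ± 0.20 and 4.97 ± 0.15 in UGE, UGM, epidermis and dermis.

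Foxa2 was higher in the UGE relative to the UGM by 5.31 ± 0.10, or 39.7-fold, with an interval of 5.08 to 5.54 (limma adjusted p = 2.04e-11). The UGE stood above the epidermis by 5.48 ± 0.11, or 44.6-fold (limma adjusted p = 1.25e-16). Between epidermis and dermis the difference was 0.00 ± 0.13, with an interval of -0.29 to 0.29, and between UGM and dermis 0.17 ± 0.12, with an interval of -0.08 to 0.42. The interaction was 5.31 ± 0.16 (limma adjusted p = 1.25e-13). Foxa2 had the smallest SE of the 4 factors in all 5 comparisons except epidermis against dermis, where that of Foxa1 was smaller.

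Hoxb13 was also high in the UGE, with more spread between the UGE samples than Foxa2. In the UGE it ran from 9.73 over a median of 10.29 to 10.96. In the UGM it lay at 5.05, 5.72, 5.40, 5.20 and 5.62. No UGM sample came near the UGE range, although the UGE samples themselves spread over more than a log2 unit. In epidermis the values were 5.06, 5.04, 5.08 and 5.26, and in dermis 5.38, 5.53, 4.92 and 5.04. These skin values overlapped each other and those of the UGM. The means were 10.34 ± 0.47, 5.40 ± 0.28, 5.11 ± 0.10 and 5.22 ± 0.29 in UGE, UGM, epidermis and dermis.

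Hoxb13 was higher in the UGE relative to the UGM by 4.94 ± 0.22, or 30.7-fold, with an interval of 4.47 to 5.41 (limma adjusted p = 4.04e-09). The UGE was above the epidermis by 5.23 ± 0.20, or 37.5-fold (limma adjusted p = 4.28e-13). Epidermis and dermis differed by -0.11 ± 0.15, with an interval of -0.43 to 0.22, and UGM and dermis by 0.18 ± 0.21, with an interval of -0.26 to 0.62, neither called. The interaction was 5.05 ± 0.29 (limma adjusted p = 4.24e-10).

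The low values of Foxa2 and Hoxb13 in UGM and skin, and of Foxa1 in skin, lay below the median of their arrays (6.25 to 6.35), and Foxa2 lay just below the lower quartile (4.84 on both arrays) in epidermis replicate 3 and dermis replicate 4. Detection calls were not used here, so these levels were not shown to lie above background. The folds given for these genes are ratios of the listed intensities, and 50 added to every intensity brought the difference between UGE and UGM to 5.41 for Foxa1, 4.08 for Foxa2 and 3.86 for Hoxb13. Between UGE and epidermis it brought them to 6.62, 4.15 and 3.99 in the same order. All 3 were still called in both comparisons.

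Sox9 had a different pattern, with values above the median of the arrays (6.25 to 6.35) in all 4 tissues and a smaller excess in the UGE. Its main probe set ran from 7.75 over a median of 8.18 to 8.70 in the UGE. In the UGM it lay at 6.77, 6.83, 6.52, 6.72 and 6.73. The groups did not overlap, though the lowest UGE sample was less than a log2 unit above the highest UGM sample. In epidermis the values were 7.44, 7.21, 6.93 and 7.09, and in dermis 7.04, 7.21, 7.05 and 6.96. Epidermis and dermis overlapped, every epidermis sample lay below the lowest UGE sample, and every skin sample lay above the UGM. The means were 8.23 ± 0.34, 6.72 ± 0.12, 7.17 ± 0.22 and 7.06 ± 0.11 in UGE, UGM, epidermis and dermis, so the UGM was the lowest tissue for Sox9.

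Sox9 was higher in the UGE relative to the UGM by 1.52 ± 0.15, or 2.86-fold, with an interval of 1.19 to 1.85 (limma adjusted p = 6.1e-06). Between epidermis and dermis the difference was 0.10 ± 0.13, with an interval of -0.18 to 0.39 (limma adjusted p = 0.581). The interaction was 1.41 ± 0.21 (limma adjusted p = 5.76e-05). The UGE was above the epidermis by 1.06 ± 0.15, or 2.09-fold (limma adjusted p = 1.05e-05), close to the 2-fold limit. That call was lost without UGE replicate 2 (0.97), without epidermis replicate 3 (0.98) and with quantile normalization (0.95). Between UGM and dermis the difference was -0.35 ± 0.15 (limma adjusted p = 0.0809) and was not called, although the samples did not overlap.

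The other 2 probe sets of Sox9 gave smaller differences. The second probe set comes from the same cDNA record as the main one and the third from another record. The second lay at 7.41 ± 0.42 in the UGE and 6.36 ± 0.27 in the UGM, a difference of 1.05 ± 0.20 (limma adjusted p = 0.0011) that was called. The lowest UGE sample was at 6.85 and the highest UGM sample at 6.65, so the groups did not overlap. Against epidermis, at 6.58 ± 0.20, the UGE was higher by 0.83 ± 0.19, under 2-fold. The third ran from 4.71 to 5.43 in the UGE and from 4.52 to 4.70 in the UGM, near the lower quartile of the arrays, and its difference of 0.41 ± 0.12 was not called (limma adjusted p = 0.0211). All 3 probe sets had their highest mean in the UGE and their lowest in the UGM, and the size of the difference depended on the probe set.

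The UGE samples differed in their mesenchymal markers. The summed intensity of 10 mesenchymal markers (such as Vim, Twist1 and Col1a1) was 5119, 19890, 19730, 1311, 1297 and 1437 in UGE replicates 1 to 6. In the same order the main Sox9 probe set was at 8.27, 8.70, 8.51, 7.75, 8.08 and 8.08, highest in replicates 2 and 3, which had the highest sums. The second probe set, at 6.85, 7.69, 7.64, 7.33, 7.04 and 7.94, was highest in replicate 6, where the sum was low. In the UGM, where these markers summed to 77760 to 83750, Sox9 was below every UGE sample. Leaving out UGE replicates 2 and 3 gave a difference between UGE and UGM of 1.33, still called, and between UGE and epidermis of 0.88, not called. The part of these samples' mesenchymal RNA in their Sox9 was not tested. Of cartilage, a tissue where Sox9 is a main regulator, 5 of 6 markers were measured, with sums of 257.9 to 405.3 in the UGE and 852.3 to 1182 in the UGM. Col9a1 and Hapln1 were lower in the UGE, while Col2a1, Acan and Col11a2, at -0.19, 0.33 and 0.35, were not called. The means of Acan and Col11a2 in UGE and UGM were below the median of the arrays. A part of cartilage RNA in the Sox9 values was not tested.

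**Figure D3:**
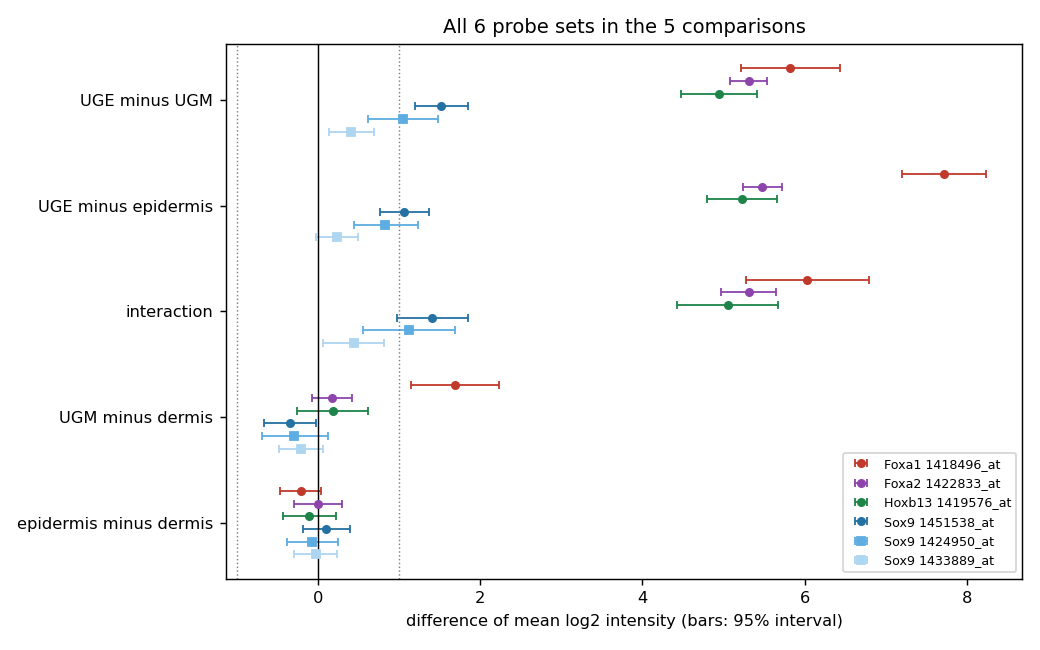
Difference of mean log2 intensity (horizontal axis) for all 6 probe sets in the 5 comparisons (rows), where interaction means UGE minus UGM less epidermis minus dermis. Points are estimates from limma, circles the main probe set of a gene and squares the other 2 of Sox9, bars are 95% intervals, and dotted lines mark 2-fold. Foxa1, Foxa2 and Hoxb13 lie between 4.94 and 7.72 in the upper 3 rows, and the 3 Sox9 probe sets between 0.23 and 1.52. Between epidermis and dermis every interval includes 0.

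Of the 4 factors, 4 of 4 had a positive interaction that was called, where 5.15% of all probe sets did, and 4 of 4 were higher in the UGE relative to the epidermis, where 6.98% were. The comparisons share their UGE, UGM and skin samples and are not independent of each other. The factors were also chosen with earlier results known, so these counts describe them and are no test. The tissue labels were checked against marker genes. All 10 epithelial markers were higher in UGE than in UGM and all 10 mesenchymal ones lower, and in skin 9 were higher in epidermis, all but Cldn7, and 10 lower. The epidermis samples held mesenchymal sums of 17390 to 39290, against 87540 to 108700 in dermis. The dermis samples held sums of 5 basal epithelial genes (Trp63, Krt5, Krt14, Krt15 and Itgb4) of 19470 to 34450, against 37410 to 52350 in epidermis. The part of such a mixture in the 0 calls between the skin layers was not tested.

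Of 24 measured genes of 26 other Fox genes listed, 2 were higher in UGE than in UGM, 4 were lower and 18 were not called, with a median of -0.02 beside 0.02 over 17360 genes and 13.3% of all probe sets called. Foxa3, the remaining Foxa gene, lay at 4.38 ± 0.22 in the UGE and 4.27 ± 0.10 in the UGM and was not called. Both means were below the lower quartile of the arrays, where a difference may not be seen. Foxc2 and Foxf2, known from mesenchyme, were lower in the UGE, at -3.66 ± 0.21 and -3.43 ± 0.22 in log2. Foxp2 was at 8.44 ± 0.76 in the UGE and 10.84 ± 0.40 in the UGM, a log2 difference of -2.39 ± 0.33, and Foxd3, known from neural crest, was at -1.27 ± 0.22. Foxn1, a factor of skin and thymus epithelium, was higher in the UGE by 2.25 ± 0.16 (0.97 and not called with 50 added), and Foxq1 by 1.48 ± 0.14. Foxn1 was also higher in epidermis relative to dermis, by 2.66 ± 0.51, and unlike Foxa1 it was lower in the UGE relative to the epidermis, at -2.07 ± 0.37. Between epidermis and dermis Foxn1 was the 1 of 24 that was higher, and Foxd1, Foxd3 and Foxp2 were lower. There 13.7% of all probe sets were called in either direction. Between UGE and epidermis 4 were higher in the UGE (Foxc1, Foxp2, Foxq1 and Foxp4) and Foxn1 and Foxn2 were lower. Of all probe sets 6.98% were higher in the UGE in that comparison.

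The 16 other Sox genes were all measured. Of these, 3 were higher in UGE than in UGM, 2 were lower and 11 were not called, with a median of -0.06. Over all tested probe sets 5.85% were higher in the UGE and 13.3% were called in either direction. Sox2, a factor of pluripotent cells and of foregut and sensory epithelium, had a larger difference than Sox9. It lay at 11.78 ± 0.23 in the UGE, 6.52 ± 0.41 in the UGM, 5.89 ± 0.43 in epidermis and 7.94 ± 0.41 in dermis. Its difference between UGE and UGM was 5.26 ± 0.18 (limma adjusted p = 6.15e-10), and in skin Sox2 ran the other way, at -2.05 ± 0.25, with an interaction of 7.31 ± 0.32. Sox6, a partner of Sox9 in cartilage, was higher in the UGE by 2.24 ± 0.23 and Sox21 by 1.49 ± 0.10. Sox6 was higher in epidermis relative to dermis too, by 1.28 ± 0.23. Sox18, known from vessel endothelium, and Sox10, known from neural crest, were at -3.32 ± 0.22 and -2.26 ± 0.12, and Sox10 was at -0.95 and not called with the mean over its probe sets. Sox8, the close relative of Sox9 and Sox10, lay at 4.07 ± 0.16 in the UGE and 4.30 ± 0.20 in the UGM and was not called. These means, too, were below the lower quartile of the arrays.

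Of 11 measured genes of 12 other Hoxb and group 13 genes, 1 was called between UGE and UGM and 10 were not, with a median of 0.11, where 13.3% of all probe sets were called. The 1 called was Hoxb5, higher in the UGE by 1.02 ± 0.21, and its call was lost without UGE replicate 2 (0.88) and without UGE replicate 3 (0.90). Without UGM replicate 3 or without UGM replicate 5 it was at 0.99, which also lost the call. Hoxb9, next to Hoxb13 in the cluster, differed by 0.11 ± 0.09. Its means, 5.57 in the UGE and 5.46 in the UGM, were below the median of the arrays, where a difference may not be seen. Hoxd13, a group 13 gene of hindgut and urogenital tissues, was high in both layers of the urogenital sinus, at 11.98 ± 0.12 in the UGE and 12.66 ± 0.23 in the UGM. In skin Hoxd13 lay at 5.48 ± 0.22 in epidermis and 5.67 ± 0.20 in dermis. It was thus higher in the UGE relative to the epidermis by 6.50 ± 0.12 and in the UGM relative to the dermis by 6.99 ± 0.13, while its difference between UGE and UGM, at -0.68 ± 0.11, was under 2-fold. Hoxa13 and Hoxc13 differed between UGE and UGM by -0.28 ± 0.17 and 0.13 ± 0.09 and were not called. Their means there, too, were below the median of the arrays. Between epidermis and dermis 0 of the 11 were called, against 13.7% of all probe sets.

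**Figure D4:**
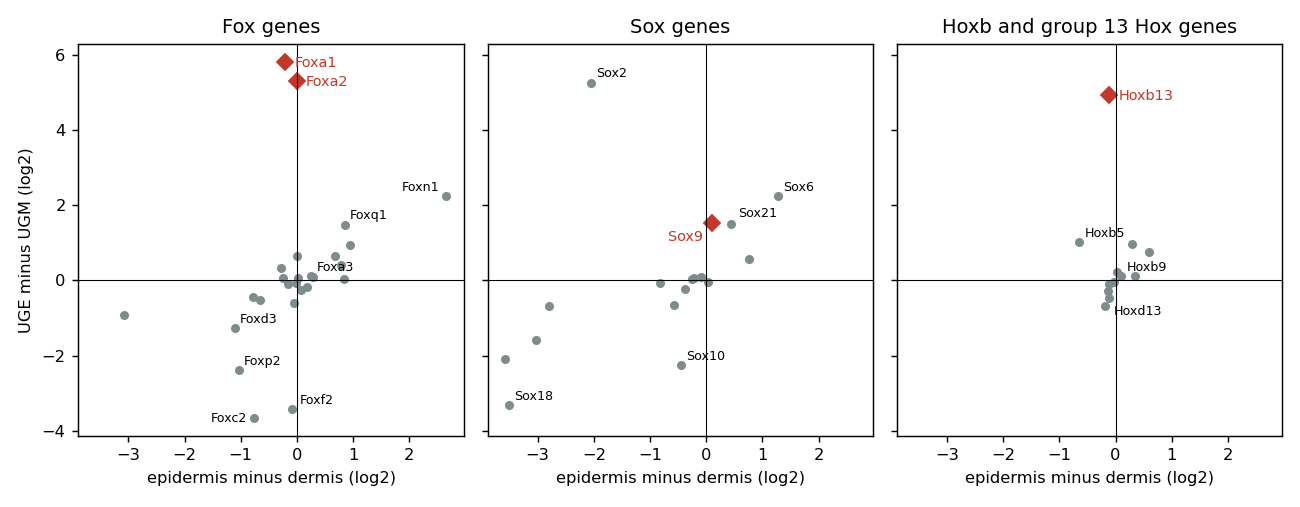
Difference between UGE and UGM (vertical axis, log2) against the difference between epidermis and dermis (horizontal axis, log2) for the main probe set of each gene in the lists of Fox genes, Sox genes and Hoxb with group 13 Hox genes. Red diamonds are Foxa1, Foxa2, Sox9 and Hoxb13, grey points the other genes, with names given for those called between UGE and UGM and for Foxa3, Hoxb9 and Hoxd13. The diamonds lie close to 0 on the horizontal axis, and Sox2, at 5.26 on the vertical axis, is the grey point nearest in height to Foxa1, Foxa2 and Hoxb13.

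Of 22 other transcription factors of urogenital sinus and endodermal epithelium, 18 were measured. Of these, 11 were higher in UGE than in UGM, 2 lower and 5 not called, with a median of 2.02. Over all tested probe sets 5.85% were higher in the UGE and 13.3% were called in either direction. The median over 17360 genes was 0.02. By the brightest probe set of each gene the largest difference was that of Trp63, the master factor of basal epithelium, at 6.25 ± 0.34. Next came Ehf, an epithelial Ets factor, at 5.92 ± 0.38. The epithelial factors Grhl3 and Grhl1 followed, at 5.65 ± 0.19 and 5.07 ± 0.27. With the mean over the probe sets of a gene, Trp63 and Ehf fell below Grhl3 and Grhl1, which did not move. All 4 were still called. These 4 differed from the Foxa genes and Hoxb13 in the skin, where each was also higher in epidermis relative to dermis, by 1.22 ± 0.25 for Trp63, 2.19 ± 0.52 for Ehf, 2.69 ± 0.42 for Grhl3 and 2.73 ± 0.48 for Grhl1. Trp63 lay at 11.68 ± 0.36 in the UGE and 12.21 ± 0.54 in the epidermis, and the difference of -0.53 ± 0.34 was not called. Sall1 and Gata2 ran the other way, at -4.09 ± 0.52 and -1.15 ± 0.17. With the mean over its probe sets Sall1 was at -2.26. Over the whole list 8 were higher in epidermis relative to dermis, and Gata2, Gata6, Isl1 and Runx1 were lower. There 13.7% of all probe sets were called in either direction.

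Of 20 signals of prostate budding, 18 were measured. Of these, 3 were higher in the UGE relative to the UGM and 8 were lower, with a median of -0.59. Over all tested probe sets 5.85% were higher in the UGE and 13.3% were called in either direction. Shh, the hedgehog ligand, is made by the epithelium and is known as a Foxa target. It was higher by 4.92 ± 0.31, or by 2.57 with the mean over its probe sets. It lay at 13.42 ± 0.20 in the UGE, 8.50 ± 0.83 in the UGM, 8.22 ± 0.26 in epidermis and 8.94 ± 0.10 in dermis, and its interaction was 5.64 ± 0.40. Fgfr2, the receptor of mesenchymal Fgf ligands, was higher in the UGE by 2.08 ± 0.09 and the receptor Notch1 by 1.84 ± 0.15. The hedgehog effectors Gli2 and Gli1 were lower in the UGE, at -4.82 ± 0.81 and -2.71 ± 0.25 in log2. The growth inhibitor Bmp4 was lower too, at -3.64 ± 0.32. Fgf10, the bud ligand, lay at 5.06 in the UGE and 4.96 in the UGM and was not called. Both levels were near the lower quartile of the arrays (4.70 to 4.92) and were not shown to lie above background.

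Of 15 airway, gut and liver genes known as Foxa targets, all measured, 3 were higher in the UGE relative to the UGM (5.85% of all probe sets were) and 12 were not called, with a median of 0.17. The 3 were Clca1, a secreted protein of mucous epithelium, at 7.23 ± 0.39, Shh, and Agr2, a factor of mucin folding, at 2.81 ± 0.30. The 3 were not called between epidermis and dermis. Of 13 measured genes of 14 known as Sox9 targets or partners, 3 were higher and 3 lower, with a median of 0.05. Of all probe sets 13.3% were called in either direction. Fgfr3, Sox6 and Lgr5 were higher in the UGE, by 4.02 ± 0.13, 2.24 ± 0.23 and 2.16 ± 0.11, and Col9a1, Prom1 and Hapln1 were at -3.97 ± 0.42, -2.05 ± 0.20 and -1.61 ± 0.27. Col2a1 and Acan, the cartilage genes best known as Sox9 targets, differed by -0.19 ± 0.11 and 0.33 ± 0.10 and were not called. Acan, at 5.91 in the UGE and 5.58 in the UGM, was below the median of the arrays. Lgr5, a stem cell marker of gut and hair follicle, lay at 9.69 ± 0.21 in the UGE, 7.53 ± 0.11 in the UGM, 5.82 ± 0.32 in epidermis and 8.04 ± 0.10 in dermis.

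The genes whose log2 values most resembled those of each factor were ranked by Pearson's r over the 19 samples, among genes with a mean over 6. These samples fall into 4 tissues, so r mostly describes the differences between tissues and is given without a test. For Foxa1 the highest were Tspan8 (0.991), Cldn7 (0.989), Upk3a (0.987), Clca1 (0.986) and Cldn6 (0.986), which include a tight junction pair and a uroplakin of the urothelial surface. For Foxa2 they were Tspan1 (0.996), Lypd2 (0.995), Tmem45b (0.994), Hoxb13 (0.994) and Krt75 (0.994). For Hoxb13 they were Krt75 (0.994), Foxa2 (0.994), Igsf5 (0.992), Cxcl15 (0.991) and Tmem45b (0.990). Foxa2 and Hoxb13 thus stood on each other's list. For Sox9 they were Slc45a4 (0.973), Ccdc88c (0.970), Fer1l4 (0.962), Slurp1 (0.960) and Il17re (0.959), with lower r than for the other factors. Between the factors r was 0.976 for Foxa1 and Foxa2, 0.973 for Foxa1 and Hoxb13, and 0.832, 0.915 and 0.884 for Sox9 with Foxa1, Foxa2 and Hoxb13.

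The genes next to each factor on the chromosome were taken by the order of RefSeq genes on GRCm38.p6. Most of those measured were not called higher in the UGE relative to the UGM. Beside Foxa1, Ttc6 was higher in the UGE relative to the UGM by 4.01 ± 0.40 (limma adjusted p = 5.46e-06), at means of 9.58 in UGE, 5.57 in UGM, 5.21 in epidermis and 5.15 in dermis. Mipol1, on the other side, differed by 0.31 ± 0.35 and was not called. Beside Foxa2, Pax1 differed by -0.05 ± 0.10 and was not called, while Sstr4 and Thbd, the next 2 genes on the other side, were lower in the UGE, at -2.98 ± 0.23 and -4.36 ± 0.35. Beside Hoxb13, Ttll6 differed by 0.06 ± 0.09, and beside Sox9 Slc39a11 by 0.54 ± 0.10, under 2-fold. Over the 4 tissues the means were 5.59 to 5.83 for Pax1 and 5.36 to 5.42 for Ttll6. These lay below the median of the arrays (6.25 to 6.35), where a difference may not be seen.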

How the data were processed

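The deposited values are linear intensity per probe set, normalized between arrays by the authors. The submitters' processing notes name GCOS 1.4, and the study names scaling in GCOS, MAS5 detection calls and PLIER. The sources used here do not say which of these made the values. From the intensity values deposited, log2 was taken without normalizing again. Pairs of arrays within a group correlated at 0.954 to 0.997.

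The 64 controls among 45101 probe sets were dropped, and 41549 with an intensity over 20 in at least 1 sample were tested. By the platform annotation 34945 probe sets have 1 symbol, 932 have several and 9160 are unnamed here. Of several tested probe sets of a gene the brightest on average was used.

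Tests were lmFit and eBayes of limma 3.58.1 under R 4.3.3 (2-sided, Benjamini-Hochberg over all tested probe sets), first tested on simulated data. UGE against UGM and epidermis against dermis were fitted on their own samples, the other comparisons in 1 fit of all 4 groups. The call rule follows the methods. The factors, lists and markers were chosen with earlier results of these data known. Named genes are the 4 factors, up to 4 called genes of each list with the largest change between UGE and UGM and up to 2 opposite ones, and the 5 most alike per factor. Other genes, such as paralogs, chromosomal neighbours and the rest of small counts, were named after their values were seen.

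Same-numbered samples were checked for pairing by the correlation of their deviations from the group means. For UGE and UGM these were 0.648, 0.006, -0.122, 0.138 and -0.406, and for epidermis and dermis 0.343, 0.108, 0.264 and 0.168. The skin numbers may therefore pair samples, a reading of these correlations that no label states. The alternatives were quantile normalization, 50 added to every intensity, a filter on the median or none, the methods' t-test, 1 fit of all groups, a replicate block, the mean of a gene's probe sets, and leaving out samples.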

Additional observations from a re-analysis of the deposited data

Results flagged for a closer look

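The difference between epithelium and mesenchyme was not the same in urogenital sinus and skin for the 4 factors, by the interaction term of limma. The interaction was 6.03 for Foxa1, 5.31 for Foxa2, 5.05 for Hoxb13 and 1.41 for Sox9, all in log2 and all called. No sample was flagged as apart from its own group by Dixon's criterion in the 24 groups examined. With 4 to 6 arrays per group this criterion can miss a distant sample. Foxa1 in UGM replicate 2, at 8.65 beside 7.29 in the next UGM sample, was not flagged.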

How the results depend on the processing

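Over 474 recomputed differences of the 4 factors, 462 kept direction and side of the threshold, 8 fell short of it and 4 changed sign. Many of these differences could not move, so the count is no measure of robustness. Foxa1 UGM minus dermis, for one, stayed at 1.69 without any 1 UGE or epidermis replicate, which are not in that comparison. The filters, the t-test and the 1 fit of all groups also leave a difference as it is. The difference between UGE and UGM ranged over the alternatives from 5.41 to 6.15 for Foxa1, 4.08 to 5.38 for Foxa2, 3.86 to 5.08 for Hoxb13 and 0.99 to 1.61 for Sox9. With the mean over the probe sets of a gene, Sox9 fell below 2-fold in UGE minus UGM (0.99), the interaction (0.99) and UGE minus epidermis (0.71), since its dimmer probe sets differed less. Sox9 UGE minus epidermis was also not called with quantile normalization (0.95), with 50 added (0.86) and without UGE replicates 2 and 3 (0.88), and ran from 0.97 to 1.16 leaving out 1 replicate at a time. Foxa2 epidermis minus dermis, near 0, was -0.03 with quantile normalization and -0.10 to 0.05 leaving out 1 replicate. The cause of these moves was not tested beyond that. Adding the replicate number as a replicate block gave 5.78, 5.36, 5.06 and 1.55 for UGE minus UGM of Foxa1, Foxa2, Hoxb13 and Sox9 and -0.21, 0.00, -0.11 and 0.10 for epidermis minus dermis, and changed no call of the factors. The filter on the median, which left 27082 probe sets, removed Foxa2 and Hoxb13 and gives no value for them. Of all probe sets 5506 were called for UGE minus UGM, 5681 for epidermis minus dermis, 3870 for the interaction, 4984 for UGE minus epidermis and 5049 for UGM minus dermis. With the mean per gene, over 17360 genes, these counts were 2506, 2430, 1987, 2018 and 2040, and with 50 added epidermis minus dermis, UGE minus epidermis and UGM minus dermis had 3686, 3296 and 3140. For low values, intensity near the lower quartile limits what a fold can mean.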
